A study of Mus musculus with 56 samples.

Results

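The collagen genes are described here as a family of 44 genes, type by type, over 7 regions of the male reproductive tract of young and old mice. The members are all genes of the count table whose mouse symbol is Col, a number, the letter a and a number, with symbols taken from the Ensembl identifiers through GENCODE release M21. The rule found 44 of 53379 genes. By the kind of assembly their protein forms, 11 were fibrillar, 6 basement membrane, 6 beaded filament, 9 FACIT (fibril-associated collagens with interrupted triple helices), 3 hexagonal network, 1 anchoring fibril, 4 transmembrane, 2 multiplexin and 2 other collagens.

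Bulk RNA was sequenced from C57BL/6 male mice at 3 months and at 21 months of age, with no treatment and no transgene named. Each age had 4 libraries of each of 7 regions, which makes 56 libraries. In the order that sperm pass them, these were the testis, the thin efferent ductules that leave it, the initial segment of the epididymis with its caput (head), corpus (body) and cauda (tail), and the vas deferens. Per the study's methods the regions of a mouse were dissected together after fat and excess connective tissue had been removed, and the right and left organs of a mouse were collected as a pair. The labels do not tie libraries of different regions to a mouse. By the methods the regions of an age came from the same 4 mice, and the tests between regions and of the interaction treat their libraries as independent. The RNA extraction reagent differs between the sources, TRIzol in the sample descriptions and an RNeasy kit in the methods.

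Collagens are the main structural proteins of the extracellular matrix, and each molecule is a triple helix of chains that are often made by different genes. Fibrillar collagens build the ropes of connective tissue, type IV collagens form the sheet under epithelium, endothelium and muscle, type VI forms beaded filaments around cells, and FACIT collagens decorate fibrils. In the male tract fibroblasts, smooth muscle cells and the cells that rest on basement membranes are known to make them, and the wall of the duct thickens with muscle towards the vas deferens.

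Libraries held 11125279 to 20561967 counts on genes, with a median of 16384049. Germ cell markers (Prm1, Prm2 and 6 others) summed to at least 9478 CPM in each testis library and to at most 642 CPM in any other library, and Adam28 and Lcn8, genes of the initial segment, were at 3395 CPM or more in each library of that region. The library labelled 3-month cauda replicate 3 stood apart. Its summed collagen level was 1601 RPKM against 523 to 546 RPKM in the other 3 young cauda libraries, and its summed macrophage markers reached 1052 CPM. The gene Gm42418 took about 49.7% of the counts of 3-month caput replicate 2. In the efferent ductules it took 1.75%, 3.29%, 1.27% and 2.82% of the counts in young and 22.2%, 4.93%, 14.9% and 18.5% in old libraries. The 21-month efferent ductule replicates 2 and 3 held Adam28 at 136 and 68.8 CPM, against at most 0.175 CPM in the other 6 libraries of that region.

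Levels are given as RPKM, which is CPM divided by the kilobases of exon, with the library sizes scaled by TMM (edgeR's trimmed mean of M-values) over all 56 libraries, so that genes of different length can be compared. Each ± on a level is the SD of 4 libraries and each ± on a log2 fold change is its standard error. A change is called at an adjusted p under 0.05 in edgeR's quasi-likelihood F-test, fitted in each region on every gene whose counts there summed to 10 or more. Since libraries are scaled again within a region for the test, its fold changes differ slightly from the ratio of the RPKM means. The methods name 4 mice per age, but the labels give replicates only by number, so p-values measure the spread between these libraries, which may be technical.

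Summed over the 44 genes, the collagen level of young mice was lowest in the testis at 102 ± 5.38 RPKM and had its highest mean in the cauda, at 802 ± 533 RPKM. That place rests on 3-month replicate 3, without which the cauda stood at 535 ± 11.6 RPKM (n = 3), below the efferent ductules and the vas deferens. The efferent ductules stood at 692 ± 74.1, the vas deferens at 632 ± 82.5, the corpus at 444 ± 137, the initial segment at 327 ± 63.6 and the caput at 298 ± 65.1 RPKM. The types did not make up the same share of this sum everywhere. In the testis the FACIT collagens held 46.7% ± 1.7 of the summed level and the fibrillar collagens 14.9% ± 1.2, while in the efferent ductules FACIT collagens held 5.16% ± 0.228 and fibrillar collagens 43.7% ± 2.79. In the initial segment the beaded filament collagens held 36.1% ± 6.47.

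At 21 months the efferent ductules stood at 425 ± 68.8, the vas deferens at 386 ± 67.9, the cauda at 249.6 ± 57.8 and the corpus at 237 ± 14.2 RPKM. The initial segment stood at 237 ± 10.6, the caput at 162 ± 14.9 and the testis at 88.7 ± 1.21 RPKM. In each region every old library lay below every young library. The fibrillar sum was 2.62 to 3.27 times higher at 3 than at 21 months in the 5 ducts other than the cauda and 1.25 times higher in the testis. In the cauda it was 7.57 times higher with 3-month replicate 3, which held 978 RPKM against 165 to 188 RPKM in the other 3, and 3.50 times higher without it. The sum of the basement membrane collagens was 1.34 to 2.0 times higher at 3 months over the 7 regions. The beaded filament sum of the initial segment was the only one of these 3 types with a higher mean in old mice, at 115 ± 9.99 RPKM in young and 129 ± 7.17 RPKM in old libraries.

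**Figure D1:**
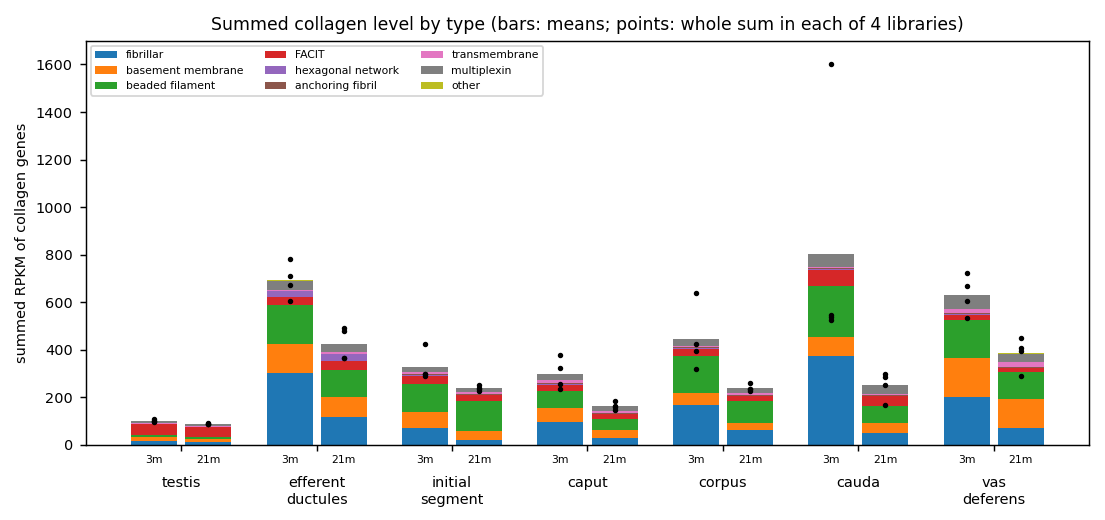
Summed RPKM of the collagen genes by region and age, with bars giving the mean of 4 libraries split by collagen type and black points the whole sum in each library. The testis bars are near 102 and 88.7 RPKM, and 1 young cauda library lies at 1601 RPKM, far above the other 3.

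In bulk tissue, fewer cells of a type and less RNA per cell cannot be told apart, and this holds for each change below. Over the 7 regions 298 tests of age were made, 90 of which found a collagen gene lower and 7 higher at 21 months. The corpus had 19 of 42 tested members lower, where 1.47% of all genes tested were, and the caput 19 of 43 against 5.05%. The initial segment had 18 of 44 lower against 3.01%, the vas deferens 17 of 42 against 8.47% and the efferent ductules 10 of 43 against 2.98%. The testis had 6 of 42 lower against 0.21%, and the cauda 1 of 42 against 0.0583%. With all 56 libraries in a single edgeR fit each testis call was lost, so that 0 members were lower there (7 at an unadjusted p under 0.05), while DESeq2 on the testis alone called 8. The shares of all genes lower in the testis by these other rules are not given.

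Calls of higher genes were few. The efferent ductules had 2 (4% of all genes were higher), the vas deferens 1 (11.4%), the corpus 1 (1.5%), the caput 1 (3.09%), the initial segment 1 (3.35%), the testis 1 (0.353%) and the cauda 0 (0.07%). The count of 0 in the cauda was also 0 at an unadjusted p under 0.05 and in DESeq2. The median log2 fold change of the tested members was -0.77 for the cauda, -0.69 for the caput, -0.61 for the corpus, -0.57 for the initial segment, -0.49 for the vas deferens, -0.32 for the efferent ductules and -0.12 for the testis. Over all genes tested the medians lay between -0.04 and 0.02.

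The cauda count depended on single libraries. Without 3-month replicate 3 the count of lower members there was 7 in place of 1, and without 3-month replicate 1, 21-month replicate 3 or 21-month replicate 4 it was 0. The cauda's share of all genes lower with a library left out is not given. For 24 of its 42 tested members no old library reached a young one, against 4.62% of all genes. The same held for 21 members of the caput (8.63%), 20 of the initial segment (5.99%), 19 of the corpus (5.27%), 18 of the vas deferens (12.1%), 14 of the efferent ductules (9.94%) and 11 of the testis (3.23%).

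A second rule, with the limits of fold and p that the study names, took a 1.5-fold change with an unadjusted p under 0.05 from the same edgeR fits. It marked 22 cauda members as lower (4.76% of all genes), 20 of the caput (8.48%), 19 of the corpus (3.36%), 17 of the initial segment (5.45%), 14 of the vas deferens (5.43%), 10 of the efferent ductules (6.16%) and 4 of the testis (1.3%). As higher it marked 4 of the corpus (3.48%), 2 of the initial segment (6.01%), 1 each of the vas deferens (12.4%), efferent ductules (6.68%), caput (4.75%) and testis (1.42%), and 0 of the cauda (3.54%).

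Counted over all 7 regions together, 2.96% of the tests on all genes were lower and 3.31% higher at 21 months. Of the tests on fibrillar collagens 34 of 76 were lower, of those on basement membrane collagens 20 of 42, on beaded filament collagens 20 of 42 and on multiplexins 6 of 14. Of the tests on FACIT collagens 8 of 59 were lower, on hexagonal network collagens 1 of 17 and on transmembrane collagens 1 of 28, the last 2 near the share of all genes. No test on Col7a1, the anchoring fibril collagen, was called among 7, nor any on Col26a1 and Col28a1 among 13. At an unadjusted p under 0.05 edgeR gave 1 lower test in each of these last 2 groups, and DESeq2 called 0 in both. In the same order the lower tests at an unadjusted p under 0.05 numbered 41 for fibrillar, 38 for basement membrane, 31 for beaded filament, 9 for multiplexin, 20 for FACIT, 6 for hexagonal network and 5 for transmembrane collagens, where 10% of the tests on all genes were lower. DESeq2 called 36, 30, 25, 8, 11, 2 and 1 lower, and 4.01% of the tests on all genes. The difference between types was not tested.

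**Figure D2:**
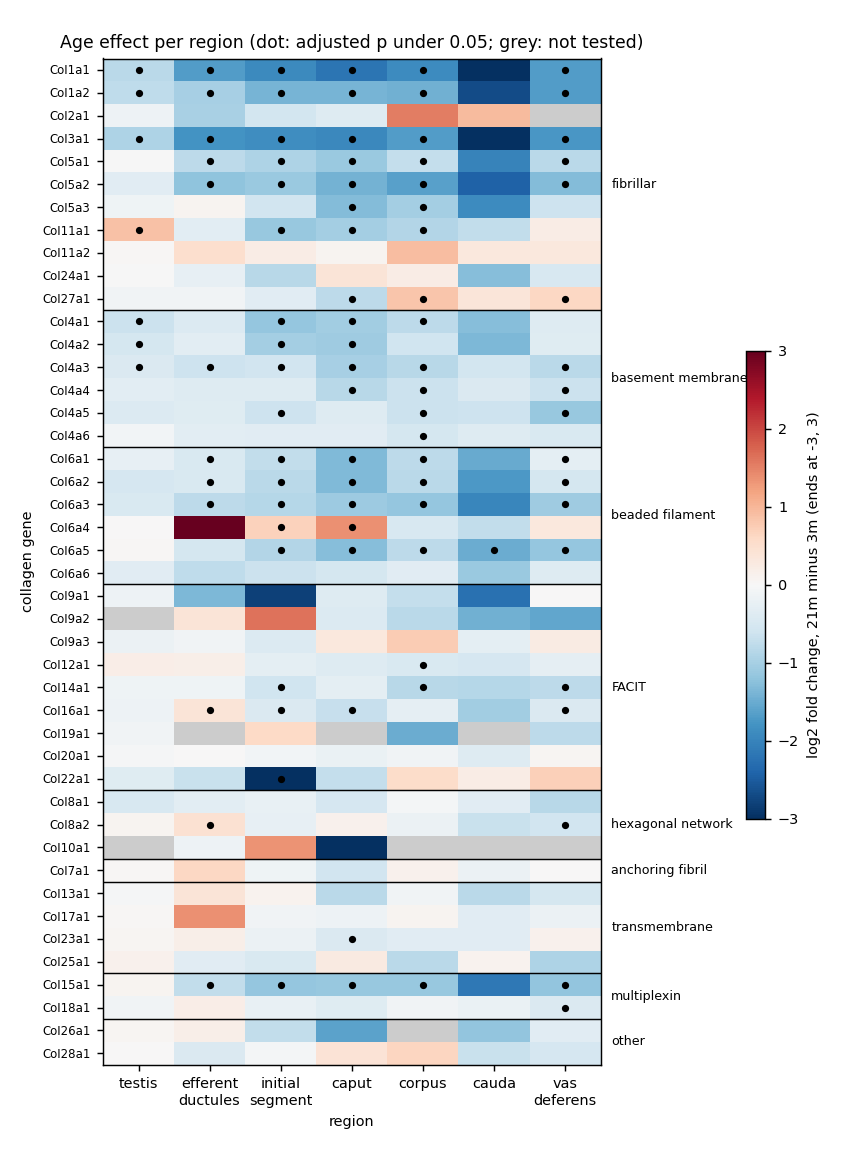
Fitted log2 fold change between 21 and 3 months for each collagen gene (rows, grouped by type) in each region (columns), with blue lower and red higher in old mice, dots at an adjusted p under 0.05 and grey where a gene was not tested. Blue cells with dots lie in the fibrillar and basement membrane rows of the 6 regions other than the cauda and in the beaded filament rows of the 5 of these that are ducts, and the cauda column has dark cells with 1 dot.

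Col1a1 and Col1a2 encode the chains of type I collagen, the main fibril of most connective tissue, and both were lower in 6 regions. Col1a1 in the testis was at 1.76, 1.63, 2.6 and 2.54 RPKM in young and 1.25, 1.22, 1.2 and 1.23 RPKM in old libraries (log2 fold change -0.80 ± 0.13, adjusted p = 0.00277). In the efferent ductules it was at 140.1, 118, 159 and 103 against 23.9, 53.6, 53.7 and 23.8 RPKM (log2 fold change -1.68 ± 0.26, adjusted p = 0.00917). In the initial segment it was at 20.6, 16.8, 52.5 and 21.6 against 7.78, 6.41, 5.78 and 6.92 RPKM (log2 fold change -1.92 ± 0.28, adjusted p = 0.00135). The ages did not overlap in these 3 regions, and young replicate 3 was the highest library of each. Old replicates 2 and 3 of the efferent ductules, which held Adam28, were above old replicates 1 and 4 for Col1a1, for the fibrillar sum (145 and 139 against 93.8 and 85.7 RPKM) and for the whole collagen sum (491 and 477 against 364 and 367 RPKM), and the part of Adam28 in these values was not tested. Gm42418 took 4.93% and 14.9% of the counts of old replicates 2 and 3, against 22.2% and 18.5% in old replicates 1 and 4. Its part in this split was not tested. In the caput Col1a1 was at 54.2, 20.4, 59.7 and 28.3 against 8.71, 8.39, 9.28 and 10.1 RPKM (log2 fold change -2.19 ± 0.25, adjusted p = 0.000475). In the corpus it was at 36.3, 47.5, 106 and 28.6 against 15.1, 15.2, 15.2 and 13.3 RPKM (log2 fold change -1.88 ± 0.27, adjusted p = 0.000861). In the vas deferens it was at 58.4, 40.1, 72.1 and 87.5 against 20.2, 26.5, 21 and 17.4 RPKM (log2 fold change -1.67 ± 0.22, adjusted p = 0.000976). Old libraries were close to each other in the caput and corpus, where young libraries spread widely. In the cauda the levels were 54, 53.5, 369 and 60.9 RPKM in young and 11.7, 3.62, 15.5 and 13.3 RPKM in old libraries, which did not overlap, with log2 fold change -3.66 ± 0.75, adjusted p = 0.0988. Without young replicate 3 the cauda value was -2.31 ± 0.38, adjusted p = 0.0358.

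Col1a2 fell in the same 6 regions as Col1a1. In the testis it was at 2.0, 1.97, 2.54 and 2.48 against 1.2, 1.44, 1.31 and 1.32 RPKM (log2 fold change -0.77 ± 0.09, adjusted p = 8.63e-05). In the initial segment it was at 11.9, 11.7, 25.4 and 13.5 against 6.84, 5.17, 4.3 and 5.28 RPKM (log2 fold change -1.40 ± 0.22, adjusted p = 0.00171). In the vas deferens it was at 40.7, 35.1, 46.7 and 51.7 against 14.1, 16.7, 13.1 and 13.4 RPKM (log2 fold change -1.67 ± 0.14, adjusted p = 0.000139). No old library overlapped a young one in these regions. The level of Col1a1 over that of Col1a2 was 2.38 in young and 1.40 in old efferent ductules, 1.99 and 1.17 in the caput, 1.69 and 1.26 in the initial segment, and 1.59 and 0.836 in the cauda. Each of these 4 differences had p = 0.0286 in an exact two-sided permutation test of 4 against 4 libraries, the smallest it can give, and an adjusted p = 0.0857 over the 69 ratios tested, none of which passed an adjusted p under 0.05. The ratio was 0.934 and 0.929 in the testis (exact p = 1), 1.44 and 1.47 in the vas deferens (exact p = 0.857) and 1.47 and 1.17 in the corpus (exact p = 0.0857), regions where both genes were also lower.

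Col3a1 encodes type III collagen, which forms thin reticular fibrils in distensible tissue. In the testis it was at 1.47, 1.5, 2.27 and 1.71 against 0.946, 0.87, 0.927 and 0.949 RPKM (log2 fold change -0.91 ± 0.12, adjusted p = 0.000216). In the efferent ductules it was at 81.4, 70.7, 94.6 and 59.6 against 24.9, 20.2, 19.8 and 18.1 RPKM (log2 fold change -1.79 ± 0.15, adjusted p = 0.00317). In the initial segment it was at 10.4, 11.4, 30.5 and 14.4 against 5.28, 4.22, 3.49 and 3.58 RPKM (log2 fold change -1.87 ± 0.28, adjusted p = 0.00144). The old libraries lay below the young ones in all 3 regions. In the caput Col3a1 was at 21.1, 13.5, 34.6 and 18.2 against 6.0, 5.57, 6.25 and 5.87 RPKM (log2 fold change -1.93 ± 0.20, adjusted p = 0.000359). In the corpus it was at 40.3, 41.8, 99.4 and 41.7 against 13.4, 17.4, 19.6 and 19.2 RPKM (log2 fold change -1.67 ± 0.23, adjusted p = 0.000575). In the vas deferens it was at 62.1, 56.6, 73.1 and 78.4 against 20.8, 25.8, 21 and 16.1 RPKM (log2 fold change -1.76 ± 0.15, adjusted p = 0.000176). Here too the ages were separate, and the third young corpus library was far above the other 3. In the cauda the 3 young libraries other than replicate 3 held 54.3 to 64.4 RPKM and the old ones 13.5 to 19.6 RPKM. With replicate 3, at 354 RPKM, the cauda gave log2 fold change -3.06 ± 0.63, adjusted p = 0.0988, and without it -1.79 ± 0.15, adjusted p = 0.00296.

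The minor fibrillar chains fell in part. Col5a2, a chain of type V collagen that sits inside type I fibrils, was lower in 5 regions. In the efferent ductules it was at 6.12, 5.57, 7.27 and 5.12 against 2.46, 2.87, 1.92 and 2.53 RPKM (log2 fold change -1.21 ± 0.13, adjusted p = 0.00317). In the caput it was at 2.03, 1.63, 3.67 and 2.38 against 0.95, 0.95, 0.922 and 0.996 RPKM (log2 fold change -1.41 ± 0.19, adjusted p = 0.0017). In the corpus it was at 3.82, 4.23, 6.95 and 3.76 against 1.47, 1.25, 1.59 and 1.81 RPKM (log2 fold change -1.62 ± 0.17, adjusted p = 5.59e-05). The ages did not overlap in these regions. Its partner Col5a1 was lower in the same 5 ducts, among them the efferent ductules (log2 fold change -0.78 ± 0.18, adjusted p = 0.0329) and the vas deferens (log2 fold change -0.81 ± 0.14, adjusted p = 0.0038). Col5a3, whose level in the efferent ductules was 13.8 ± 1.03 RPKM in young mice, was lower in the caput and corpus, and its value in the efferent ductules was log2 fold change 0.08 ± 0.23, adjusted p = 0.864. There old replicates 2 and 3 were at 19.96 and 17.7 RPKM and old replicates 1 and 4 at 9.33 and 8.62 RPKM. Replicates 2 and 3 also held Adam28 at 136 and 68.8 CPM, against at most 0.175 CPM in the other 6 libraries of the region, and its part in the Col5a3 values was not tested. Col2a1, the type II collagen of cartilage, and Col11a2 and Col24a1 were called in no region.

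**Figure D3:**
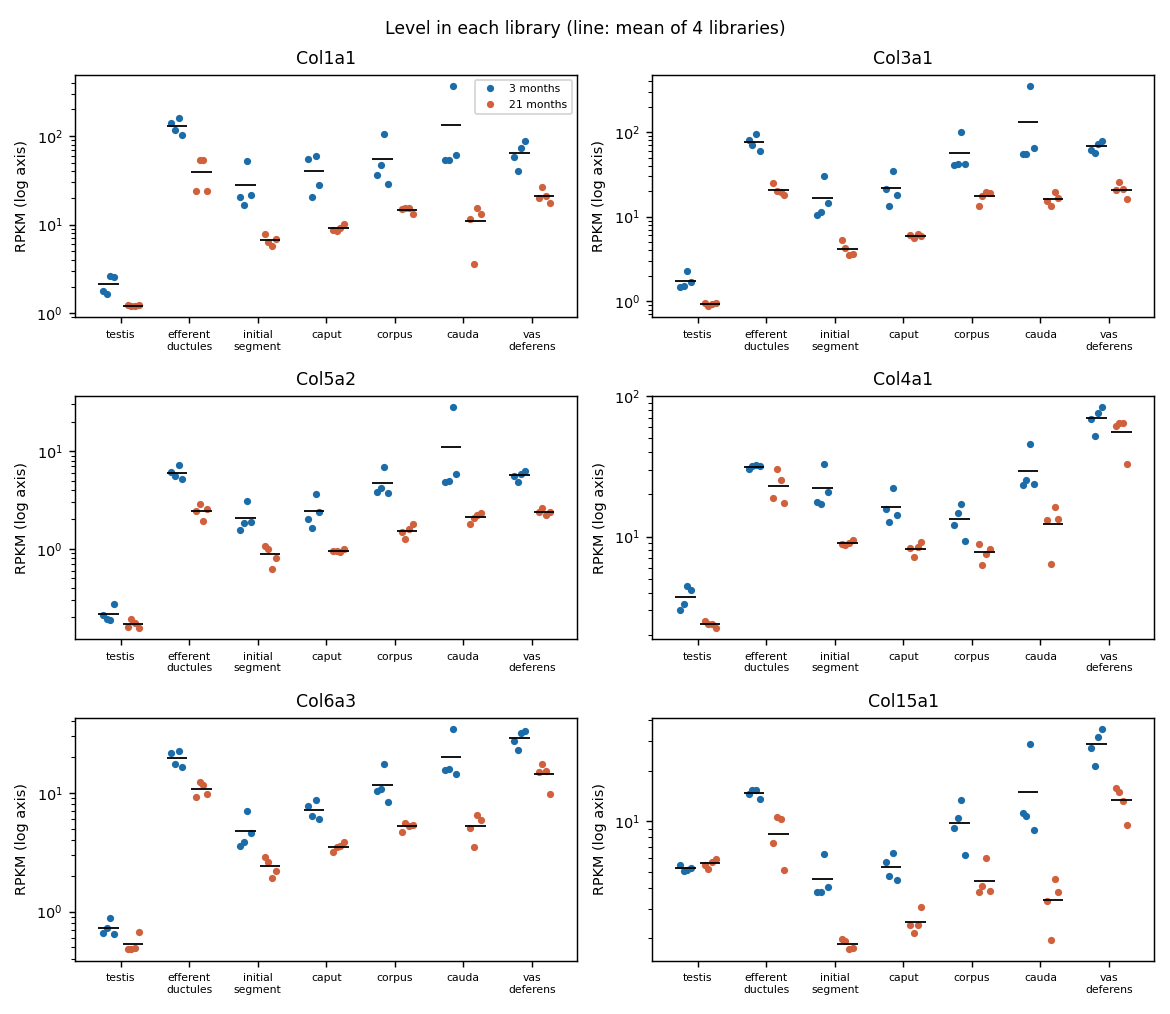
RPKM of 6 members in each library on a log axis, by region, with young libraries in blue, old ones in orange and a line at each mean. In all 6 plots the old libraries of the cauda lie below the young ones of the cauda. For Col1a1 and Col3a1, 1 young cauda library lies far above the other young cauda libraries.

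The upstream sequence of members is shown for members whose levels fell together or were highest in 1 region. Windows of 250 bases before to 50 after the gene's start come from RefSeq on GRCm38.p6, and 35 of the 44 members had one. Capitals mark 3 motifs on either strand, the CCAAT box (letters CCAAT), the TATA box (letters TATAAA) and the GC box (letters GGGCGG). The CCAAT box was in 12 of the 35 windows, the TATA box in 5 and the GC box in 22, against 37.4%, 13.6% and 35.7% of all 32851 windows. The first 4 sequences are Col1a2 at chr6:4505368-4505667, Col3a1 at chr1:45311288-45311587, and Col4a1 and Col4a2 at chr8:11312777-11313076 and chr8:11312555-11312854, of which the last 2 share 78 bases in opposite directions. The last 2 belong to Col6a4 at chr9:106096642-106096941 and Col24a1 at chr3:145292222-145292521, whose levels were highest in a single region.
Col1a2: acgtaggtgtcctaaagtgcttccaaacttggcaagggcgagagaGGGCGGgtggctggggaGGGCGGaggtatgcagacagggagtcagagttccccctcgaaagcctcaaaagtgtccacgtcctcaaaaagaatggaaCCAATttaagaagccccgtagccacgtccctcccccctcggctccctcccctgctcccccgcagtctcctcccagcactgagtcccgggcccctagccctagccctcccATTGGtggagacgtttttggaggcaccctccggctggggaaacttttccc
Col3a1: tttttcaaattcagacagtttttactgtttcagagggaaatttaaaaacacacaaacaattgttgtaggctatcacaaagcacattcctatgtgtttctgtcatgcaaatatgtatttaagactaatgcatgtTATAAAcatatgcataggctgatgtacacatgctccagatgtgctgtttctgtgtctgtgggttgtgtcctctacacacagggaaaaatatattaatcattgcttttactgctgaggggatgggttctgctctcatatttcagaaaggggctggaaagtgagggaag
Col4a1: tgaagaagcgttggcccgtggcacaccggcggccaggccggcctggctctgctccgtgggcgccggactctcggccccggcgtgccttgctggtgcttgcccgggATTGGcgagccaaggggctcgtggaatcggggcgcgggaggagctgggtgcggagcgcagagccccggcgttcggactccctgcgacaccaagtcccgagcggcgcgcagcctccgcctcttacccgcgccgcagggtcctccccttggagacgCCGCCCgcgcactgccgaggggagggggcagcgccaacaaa
Col4a2: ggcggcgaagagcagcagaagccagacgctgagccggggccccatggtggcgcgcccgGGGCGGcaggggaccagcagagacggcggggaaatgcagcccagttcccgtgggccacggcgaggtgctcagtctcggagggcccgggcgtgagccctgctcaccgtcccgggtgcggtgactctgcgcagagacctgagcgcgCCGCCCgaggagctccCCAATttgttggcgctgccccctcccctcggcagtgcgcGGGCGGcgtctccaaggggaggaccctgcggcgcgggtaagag
Col6a4: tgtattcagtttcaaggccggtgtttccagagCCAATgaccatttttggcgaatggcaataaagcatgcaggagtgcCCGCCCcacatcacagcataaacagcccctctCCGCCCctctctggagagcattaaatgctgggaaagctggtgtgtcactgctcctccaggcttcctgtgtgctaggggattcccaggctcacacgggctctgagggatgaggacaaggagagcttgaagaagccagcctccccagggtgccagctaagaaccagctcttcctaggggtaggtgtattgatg
Col24a1: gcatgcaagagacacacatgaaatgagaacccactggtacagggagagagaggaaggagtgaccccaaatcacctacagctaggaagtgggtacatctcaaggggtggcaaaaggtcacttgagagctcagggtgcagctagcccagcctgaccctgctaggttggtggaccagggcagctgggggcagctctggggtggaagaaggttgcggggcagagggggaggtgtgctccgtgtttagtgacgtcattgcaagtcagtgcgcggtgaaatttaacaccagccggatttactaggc
The Col1a2 window held 2 CCAAT boxes and 2 GC boxes, and the Col3a1 window 1 TATA box. The Col24a1 window held none of the 3.

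Type IV collagens form the network of basement membranes, with Col4a1 and Col4a2 chains found almost everywhere. The pair is transcribed in opposite directions from a shared start region on chromosome 8 (Col4a1 at 11198423 to 11312826 and Col4a2 at 11312805 to 11449287). Col4a1 was lower in the testis (log2 fold change -0.65 ± 0.10, adjusted p = 0.00198), initial segment (log2 fold change -1.16 ± 0.17, adjusted p = 0.0012), caput (log2 fold change -1.03 ± 0.14, adjusted p = 0.00178) and corpus (log2 fold change -0.79 ± 0.14, adjusted p = 0.00418). It was highest in the vas deferens, at 70.1 ± 13.6 RPKM in young and 55.8 ± 15.2 RPKM in old mice, where the libraries overlapped (log2 fold change -0.40 ± 0.20, adjusted p = 0.197). Col4a2 was lower in the testis, initial segment and caput.

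Col4a3, a chain of more restricted basement membranes such as that of the kidney glomerulus, was lower in 6 regions. Its fold changes ran from log2 fold change -0.44 ± 0.09, adjusted p = 0.0191 in the testis to log2 fold change -0.99 ± 0.12, adjusted p = 0.000908 in the caput, and the ages did not overlap in any region. Of its exons, 5.65% overlap those of C430014B12Rik on the other strand. Its partner Col4a4, which was highest in the young efferent ductules at 30.05 ± 3.86 RPKM, was lower in the caput, corpus and vas deferens. Col4a5 and Col4a6, which are paired on the X chromosome, were highest in the vas deferens at 23.8 ± 3.5 and 20.4 ± 1.32 RPKM in young mice. There Col4a5 stood at 24.2, 19.3, 24 and 27.9 against 12.5, 13.5, 10.9 and 8.04 RPKM (log2 fold change -1.15 ± 0.16, adjusted p = 0.00143), with no overlap. Col4a6 was not called there (log2 fold change -0.46 ± 0.18, adjusted p = 0.0999). The level of Col4a5 over Col4a6 was 1.16 in young and 0.738 in old vas deferens and 2.16 and 1.73 in the testis (exact two-sided permutation p = 0.0286, adjusted p = 0.0857 for each), and in the other 5 regions the exact p was 0.171 to 0.686.

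Col6a1, Col6a2 and Col6a3 encode the chains of common type VI collagen, which links cells to fibrils. All 3 were called lower in the 5 ducts other than the cauda. Among these calls the largest fold changes were in the caput for Col6a1 (log2 fold change -1.33 ± 0.12, adjusted p = 0.000145) and Col6a2 (log2 fold change -1.33 ± 0.15, adjusted p = 0.000463), and in the corpus for Col6a3 (log2 fold change -1.16 ± 0.15, adjusted p = 0.000512). The cauda held larger ones that were not called, for Col6a1 (log2 fold change -1.51 ± 0.36, adjusted p = 0.141), Col6a2 (log2 fold change -1.72 ± 0.41, adjusted p = 0.141) and Col6a3 (log2 fold change -1.96 ± 0.33, adjusted p = 0.0559), and no old library there reached a young one. Without 3-month replicate 3 the cauda values were -1.04 ± 0.25 (adjusted p = 0.135) for Col6a1, -1.18 ± 0.29 (adjusted p = 0.147) for Col6a2 and -1.51 ± 0.20 (adjusted p = 0.015) for Col6a3. The level of Col6a3 over Col6a1 was 0.434 in young and 0.249 in old vas deferens, 0.176 and 0.138 in the corpus and 0.189 and 0.141 in the cauda, and in the other direction 0.195 and 0.231 in the caput (exact two-sided permutation p = 0.0286 and adjusted p = 0.0857 for each). In the efferent ductules, testis and initial segment the exact p was 0.143, 0.314 and 0.371.

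Col6a5, an alternative type VI chain, was highest in the young corpus at 50.6 ± 9.01 RPKM and lowest in the testis at 0.734 ± 0.0813 RPKM. In the cauda it was at 36.6, 37.7, 39.6 and 32.4 RPKM in young and 11.3, 15, 11.8 and 14 RPKM in old libraries (log2 fold change -1.49 ± 0.14, adjusted p = 0.00613). Young replicate 3 did not stand apart for this gene, the 1 member called there. It lost its call without 3-month replicate 1 or 21-month replicate 3 or 4, with adjusted p = 0.0543, 0.0637 and 0.0633. It was also lower in the initial segment, caput, corpus and vas deferens, and in the efferent ductules its value was log2 fold change -0.53 ± 0.19, adjusted p = 0.11. Col6a6 was called in no region.

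Col6a4, a further alternative type VI chain, stood out by place and by direction. At 3 months it was at 82.2, 89, 57.9 and 61.4 RPKM in the initial segment, 41.5 times its mean over the other 6 regions (adjusted p = 6.73e-29), next highest in the caput at 5.44 ± 1.08 RPKM and then in the testis at 2.89 ± 0.319 RPKM. Each step of this order passed an adjusted p under 0.05. It was lowest in the efferent ductules, at 0.151 ± 0.0618 RPKM.

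With age Col6a4 rose in the initial segment to 106, 96.2, 113 and 109.6 RPKM (log2 fold change 0.69 ± 0.11, adjusted p = 0.0023), with no overlap between the ages. Its share of the summed collagen level there went from 23.1% to 44.7%. In the caput it was at 5.77, 4.16, 6.71 and 5.12 RPKM in young and 15.8, 8.01, 13.7 and 21.5 RPKM in old libraries (log2 fold change 1.38 ± 0.22, adjusted p = 0.00405), again with no overlap. Adam28 and Lcn8, the genes of the initial segment, were at 313 ± 156 and 576 ± 264 CPM in the young and 346 ± 139 and 780.1 ± 214 CPM in the old caput (log2 fold change 0.09 ± 0.32 and 0.39 ± 0.25, adjusted p = 0.895 and 0.371), and their part in the Col6a4 values was not tested. In the efferent ductules old replicates 2 and 3 held Col6a4 at 9.53 and 1.48 RPKM and the other 6 libraries at most 0.231 RPKM, and the same 2 libraries held Adam28 and Lcn8.

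**Figure D4:**
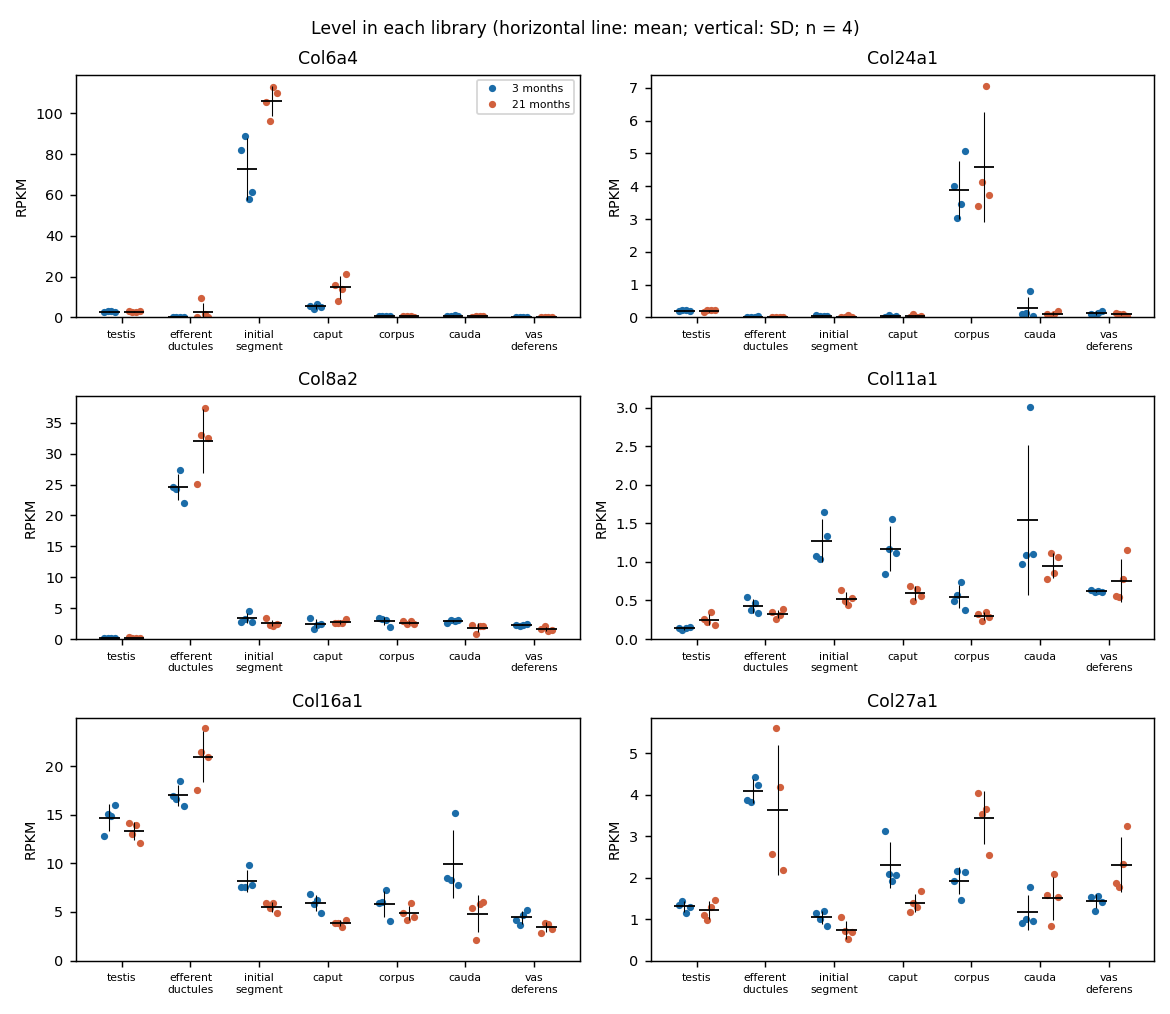
RPKM of 6 members in each library by region, with young libraries in blue, old in orange, horizontal lines at the means and vertical lines of 1 SD. Col6a4 is high in the initial segment and Col24a1 in the corpus at both ages, and Col8a2 in the efferent ductules.

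Col24a1, a fibrillar collagen of low abundance known from bone and cornea, was at 4.02, 3.02, 3.46 and 5.06 RPKM in the young corpus, 32.4 times its mean elsewhere (adjusted p = 3.58e-16). It stood at 3.41, 4.13, 7.05 and 3.74 RPKM in the old corpus (log2 fold change 0.23 ± 0.22, adjusted p = 0.64). Outside the corpus its mean was at most 0.278 RPKM, in the cauda, and the neighbours in the order below the corpus did not differ beyond their spread.

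Col8a2, a short-chain collagen of hexagonal networks known from the cornea, was at 24.7, 24.3, 27.3 and 22 RPKM in the young efferent ductules, 10.01 times its mean elsewhere (adjusted p = 4.33e-24). The next 5 regions lay between 2.30 and 3.34 RPKM and did not differ between neighbours. In the old efferent ductules it was at 25.1, 33.1, 37.4 and 32.5 RPKM (log2 fold change 0.46 ± 0.11, adjusted p = 0.0348), with each old library except the first above the highest young one. With libraries scaled within the region, as in the test, the ages did not overlap. In the vas deferens it was at 2.32, 2.16, 2.31 and 2.4 against 1.58, 2.08, 1.22 and 1.51 RPKM (log2 fold change -0.58 ± 0.17, adjusted p = 0.0329). The call in the efferent ductules was lost without any young library or without old replicate 3 or 4 (adjusted p up to 0.12), and in the vas deferens without any young library or old replicate 1 or 3 (adjusted p up to 0.0936).

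The testis held 8 members at least 4 times their mean elsewhere at 3 months, where 28.2% of all genes passed the same rule. Of the 8, 5 are FACIT collagens. Col22a1, known from tissue junctions such as that of muscle and tendon, was at 10.9, 12.7, 15 and 10.1 RPKM, 125 times its mean elsewhere (adjusted p = 7.41e-24). Col2a1 stood 95.9 times, Col9a3 12.5 times, Col19a1 9.95 times, Col9a1 8.5 times, Col20a1 8.25 times, Col25a1 6.78 times and Col28a1 5.77 times higher. Of their exons, 6.07% of Col9a3 overlap those of Tcfl5 on the other strand and 1.54% of Col20a1 overlap those of another transcript on the same strand. In old testis Col22a1 was at 9.05, 9.23, 9.95 and 9.95 RPKM (log2 fold change -0.35 ± 0.09, adjusted p = 0.059). None of the 8 was called for age in the testis.

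Col22a1 had few counts outside the testis. In the initial segment 9, 17, 11 and 9 counts in young and 1, 1, 0 and 0 counts in old libraries give a ratio of 22.6 (95% exact interval 5.91 to 192, which covers counting error only) and an adjusted p = 0.00322. Summed germ cell markers there were 31.9 to 113 CPM in young and 8.6 to 24.1 CPM in old libraries, with 7 of 8 of the list called lower, and their part in the Col22a1 value was not tested.

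By the same rule the young vas deferens held 4 members (3.2% of all genes), the efferent ductules 3, Col8a2, Col5a3 and Col4a4 (5.46%), the corpus, caput and initial segment 1 each (2.7%, 3.42% and 2.48%) and the cauda 0 (2.18%). At 21 months the testis held 8 (27.6%), the vas deferens 4 (3.98%), the efferent ductules and initial segment 3 each (5.22% and 4.21%), the corpus 1 (2.88%), and the caput and cauda 0 each (1.77% and 1.97%). The 3 of the old initial segment were Col6a4, Col10a1 and Col9a2, and in the old vas deferens Col4a1 stood in the place of Col4a5. The 4 of the young vas deferens were Col26a1, Col23a1, Col4a6 and Col4a5. Col26a1 was at 2.19, 2.69, 2.29 and 2.44 RPKM there, 6.89 times its mean elsewhere, and next at 1.19 ± 0.0568 RPKM in the testis. Col23a1, a transmembrane collagen, was at 18.5, 16.8, 15.2 and 17.8 RPKM. The 1 member of the caput was Col10a1, the cartilage collagen type X, at 0, 0.171, 0.105 and 0.141 RPKM, with 70 counts in all 56 libraries.

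By mean level at 3 months the cauda was highest for 12 members, the testis for 9, the vas deferens for 9 and the efferent ductules for 8. Only for Col12a1 and Col14a1 among the 12 did the cauda differ from the next region at an adjusted p under 0.05. Without 3-month replicate 3 it was highest for 5 members, Col6a1, Col9a2, Col12a1, Col14a1 and Col18a1, and the other 7, among them Col1a1, Col1a2 and Col3a1, had a higher mean elsewhere. In 26 of the 44 members the highest and the next region differed at an adjusted p under 0.05, and in 31 the highest region was the same at both ages. Levels differed among the 7 regions for 43 members at 3 months, where 91.2% of all genes did, and for 44 at 21 months, where 91.3% did.

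**Figure D5:**
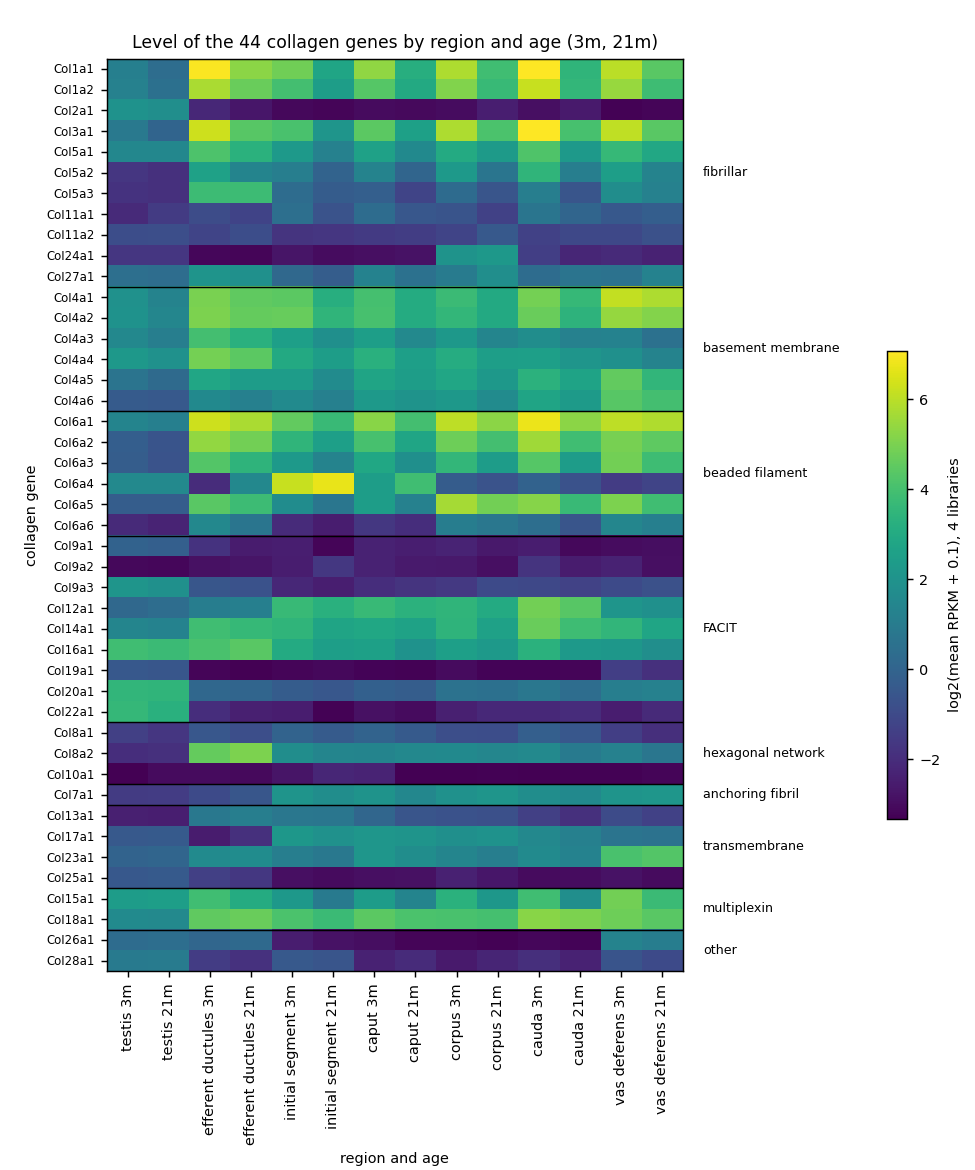
Mean level of each collagen gene (rows, grouped by type) in each region and age (columns), as log2(mean RPKM + 0.1) of 4 libraries. The testis columns are bright in rows of the FACIT group that are dark elsewhere, and Col6a4, Col24a1 and Col8a2 are each bright in 1 region.

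In 4 members the direction of the age effect differed among regions, each with a test of the difference among the 7 regions and a call in both directions. That test was passed by 18 of the 44 members, against 20.2% of all genes, and by 9 without replicate 1 or without replicate 2 of every group, 13 without replicate 3 or 4 and 11 with library size only. Col11a1, a fibrillar collagen of cartilage and fetal tissue, was higher in the testis at 0.257, 0.219, 0.346 and 0.186 RPKM in old against 0.139, 0.115, 0.141 and 0.152 RPKM in young libraries (log2 fold change 0.88 ± 0.20, adjusted p = 0.0482). It was lower in the initial segment at 0.631, 0.493, 0.446 and 0.531 RPKM in old against 1.08, 1.04, 1.65 and 1.33 RPKM in young libraries (log2 fold change -1.14 ± 0.17, adjusted p = 0.00124). In the caput it was at 0.681, 0.493, 0.653 and 0.562 RPKM in old against 0.844, 1.17, 1.55 and 1.12 RPKM in young libraries (log2 fold change -1.03 ± 0.19, adjusted p = 0.00839), and in the corpus the change was log2 fold change -0.89 ± 0.21, adjusted p = 0.0272. The ages did not overlap in the testis, initial segment, caput or corpus, and the difference among regions had an adjusted p = 0.000189. The testis call was lost without any library but 21-month replicate 4 (adjusted p up to 0.228), and the corpus call without 21-month replicate 1, 2 or 4 or 3-month replicate 2 or 3 (adjusted p up to 0.124).

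Col27a1, a fibrillar collagen of cartilage, was higher in the corpus at 4.04, 3.55, 3.66 and 2.54 RPKM in old against 1.92, 2.17, 1.46 and 2.14 RPKM in young libraries (log2 fold change 0.83 ± 0.16, adjusted p = 0.00893). In the vas deferens it was at 1.88, 1.79, 2.33 and 3.26 RPKM in old against 1.54, 1.2, 1.57 and 1.42 RPKM in young libraries (log2 fold change 0.63 ± 0.18, adjusted p = 0.0337). It was lower in the caput, at 1.17, 1.39, 1.28 and 1.68 RPKM in old against 3.13, 2.1, 1.93 and 2.07 RPKM in young libraries (log2 fold change -0.79 ± 0.16, adjusted p = 0.0106). The ages did not overlap in these 3 regions, and the effects differed among regions (adjusted p = 0.00115). The vas deferens call was lost without any young library or without old replicate 3 (adjusted p up to 0.0897), and the caput call without old replicate 1 (adjusted p = 0.0501).

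Col16a1, a FACIT collagen, had the highest level of all members in the young testis, at 14.7 ± 1.38 RPKM. It was higher in the old efferent ductules, at 17.5, 21.4, 23.9 and 21 RPKM in old against 16.9, 16.6, 18.5 and 15.9 RPKM in young libraries (log2 fold change 0.38 ± 0.10, adjusted p = 0.0428). It was lower in the caput, at 3.85, 3.86, 3.49 and 4.17 RPKM in old against 6.87, 5.81, 6.24 and 4.85 RPKM in young libraries (log2 fold change -0.69 ± 0.12, adjusted p = 0.00707). It was also lower in the initial segment (log2 fold change -0.43 ± 0.10, adjusted p = 0.0204) and the vas deferens (log2 fold change -0.44 ± 0.12, adjusted p = 0.0308), and the effects differed among regions (adjusted p = 0.00494). In RPKM the first old library of the efferent ductules lay within the young range, while with libraries scaled within the region the ages did not overlap. The call there was lost without any young library or old replicate 2, 3 or 4 (adjusted p up to 0.13). With library size only, a scaling that moves the median of all genes in that region to -0.38, the log2 fold change was 0.04 (adjusted p = 0.855), and that of Col8a2 there was 0.12 (adjusted p = 0.588). In the initial segment the Col16a1 call was lost without old replicate 2 or 4 or young replicate 3 (adjusted p up to 0.0862), and in the vas deferens without old replicate 1 or 3 or young replicate 1, 3 or 4 (adjusted p up to 0.0949).

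Col15a1, a multiplexin collagen of basement membrane zones, was lower in 5 regions, from log2 fold change -0.75 ± 0.18, adjusted p = 0.0377 in the efferent ductules to log2 fold change -1.18 ± 0.18, adjusted p = 0.00211 in the vas deferens, and its testis value was log2 fold change 0.09 ± 0.07, adjusted p = 0.707. In the cauda it was not called (log2 fold change -2.16 ± 0.41, adjusted p = 0.0864), though the ages did not overlap, and without 3-month replicate 3 the value was -1.55 ± 0.25, adjusted p = 0.0317. Col18a1, the multiplexin whose fragment is endostatin, was lower in the vas deferens only among calls (log2 fold change -0.44 ± 0.12, adjusted p = 0.0314), where 1 old library overlapped the young range. Among FACIT collagens Col14a1 was lower in the initial segment, corpus and vas deferens, with the corpus at log2 fold change -0.84 ± 0.12, adjusted p = 0.000833, and Col12a1 was lower in the corpus (log2 fold change -0.47 ± 0.10, adjusted p = 0.0126). Col12a1 was highest in the cauda, at 29.1 ± 2.25 RPKM in young mice. Of the transmembrane collagens Col23a1 was lower in the caput (log2 fold change -0.43 ± 0.10, adjusted p = 0.0223). Col7a1, which anchors epithelium to the tissue below, was at 3.32 to 4.05 RPKM in the 5 young regions from the initial segment to the vas deferens and at 0.255 and 0.404 RPKM in the testis and efferent ductules. Col17a1, a hemidesmosome collagen, was near 4.40 RPKM in the young initial segment and 0.0709 RPKM in the young efferent ductules. In all, 17 members were called in no region.

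The genes that fold, cut and cross-link collagen were lower in part. Of 34 such genes, the initial segment had 11 lower (3.01% of all genes were), the caput 8 (5.05%), the corpus 8 (1.47%), the vas deferens 7 (8.47%), the efferent ductules 3 (2.98%), the testis 1 (0.21%) and the cauda 0 (0.0583%). In the cauda 18 were lower at an unadjusted p under 0.05 in edgeR, and DESeq2 called 11. In the efferent ductules 6 were lower and 7 higher at an unadjusted p under 0.05, and DESeq2 called 3 lower and 5 higher. Over the 7 regions together, 10% of the tests on all genes were lower at an unadjusted p under 0.05 in edgeR and 4.01% by DESeq2. The shares of single regions by these 2 rules are not given, here or for the lists below. P3h4 and Pcolce2 were higher in the efferent ductules, where 4% of all genes were, and Mia2 and Mia3 in the vas deferens, where 11.4% were. Sparc, which binds collagen during assembly, Adamts2, which trims its N-terminal propeptide, and Lox, which cross-links it, were each lower in 5 regions by the adjusted p of edgeR. The study, which used DESeq2 with limits of 1.5-fold and p under 0.05, lists Lox as lower in all 7 regions. In the corpus Lox went from 22.5 ± 4.54 to 6.94 ± 0.906 CPM (log2 fold change -1.70 ± 0.15, adjusted p = 9.34e-06 by edgeR) and Sparc from 439 ± 153 to 182 ± 16.2 CPM (-1.26 ± 0.16, adjusted p = 0.000345 by edgeR). Of the 16 laminins, nidogens and other partners in the basement membrane, 9 were lower in the initial segment (3.01%), 5 in the vas deferens (8.47%), 5 in the corpus (1.47%), 5 in the caput (5.05%) and 3 in the efferent ductules (2.98%). None was called in the testis or cauda, where edgeR gave 2 and 8 lower at an unadjusted p under 0.05 and DESeq2 called 0 and 6. The laminin chain Lama1 was higher in the initial segment (3.35%) and Lamb3 in the efferent ductules (4%), with Lamc1 and Nid1 lower in 5 regions each. Of the 10 receptors of collagen 3 were lower in the vas deferens (8.47%), 2 in the corpus (1.47%) and 1 each in the efferent ductules (2.98%) and initial segment (3.01%). None was lower in the testis, caput or cauda, where edgeR gave 0, 2 and 1 at an unadjusted p under 0.05 and DESeq2 called 0 in each. The integrin chain Itga1 was lower in 3 regions, the receptor kinase Ddr2 in 2 and Ddr1 and Mrc2 in 1 each, and the other 6 were called in no region.

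Marker levels moved with age beside these genes. To read the counts against, 8.47% of all genes were lower with age in the vas deferens, 5.05% in the caput, 3.01% in the initial segment, 2.98% in the efferent ductules, 1.47% in the corpus, 0.21% in the testis and 0.0583% in the cauda. In the same order 11.4%, 3.09%, 3.35%, 4%, 1.5%, 0.353% and 0.07% were higher. These shares are for adjusted edgeR calls. Over the 7 regions together, 10% of the tests on all genes were lower at an unadjusted p under 0.05 in edgeR and 4.01% by DESeq2. The shares of single regions by these 2 rules are not given. Of 8 fibroblast markers, 8 were lower in the corpus (summed level 707 to 905 CPM in young and 423 to 543 CPM in old), 5 in the vas deferens, 4 in the initial segment, 2 in the caput and 1 in the efferent ductules, and edgeR called 0 in the testis and cauda. In the cauda their summed level was 1090 to 1480 CPM in young and 766 to 1016 CPM in old libraries, with no overlap, 7 were lower at an unadjusted p under 0.05 and DESeq2 called 4. In the testis 2 were lower at an unadjusted p under 0.05 and DESeq2 called 0. Of 8 smooth muscle markers 7 were lower in the caput, 2 in the initial segment and 1 each in the testis and corpus, and 5 were higher in the vas deferens and 2 in the efferent ductules. Their summed level in the cauda was 4775 to 7303 CPM in young and 3103 to 4621 CPM in old libraries. Of 8 skeletal muscle markers edgeR called 0 in the cauda, where 8 were lower at an unadjusted p under 0.05 and 3 by DESeq2, with a summed level of 106 to 213 CPM in young and 29.5 to 74.6 CPM in old libraries. The caput had 1 of them lower and the vas deferens 3 higher. Mesothelial markers of the cauda summed to 51.8 to 64.7 CPM in young and 39.8 to 47.8 CPM in old libraries, with 0 of 5 called by edgeR, 3 lower at an unadjusted p under 0.05 and 1 by DESeq2. In the caput they summed to 33.6 to 47.5 and 52.9 to 63.4 CPM, with 1 higher. The initial segment also had 1 higher, and the vas deferens had 2 lower. Of 8 chondrocyte markers 3 were lower in the caput (69.6 to 88.6 against 45.5 to 61.2 CPM), 2 in the efferent ductules and 1 in the corpus, and the initial segment had 1 lower and 1 higher. In the vas deferens 2 of them were higher and 1 lower, with a summed level of 14.9 to 17.9 CPM in young and 24.2 to 36.2 CPM in old libraries. Of 8 germ cell markers 7 were lower in the initial segment (31.9 to 113 CPM in young against 8.6 to 24.1 CPM in old libraries). In the caput 2 of them were lower (95.04 to 134 against 82.2 to 86.3 CPM), and in the vas deferens 1 was higher. The basal epithelium, Sertoli, Leydig and Schwann cell lists had at most 1 gene called in a direction in any region. Of 8 endothelial markers the vas deferens had 3 lower, the initial segment 1 and the caput 1 lower and 1 higher. Their summed level was 256 to 326 CPM in the young and 216 to 247 CPM in the old initial segment. In the cauda it was 147 to 267 and 92.2 to 145 CPM, also with no overlap, where edgeR called 0, 4 were lower at an unadjusted p under 0.05 and DESeq2 called 1. Of 6 T cell markers the vas deferens had 6 higher, the efferent ductules 4, the initial segment 3 and the caput 2. Of 6 macrophage markers 3 were higher in the efferent ductules, 2 each in the caput and vas deferens and 1 each in the initial segment and testis. Of 8 adipocyte markers the corpus had 3 lower, the initial segment and caput 2 each and the efferent ductules 4, with a summed level of 908 to 1323 CPM in young and 270.4 to 724 CPM in old libraries. Young replicate 3 had the highest summed collagen level of its group in 6 of 7 regions. Without it the counts of lower members were 19 for the caput, 17 for the initial segment, 15 for the corpus, 13 for the vas deferens, 6 for the efferent ductules and 5 for the testis. Shares of all genes without it are not given. The part of these markers in the falls of the collagen genes was not tested.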

How the data were processed

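RNA was sequenced from 56 libraries made with a TruSeq stranded total RNA kit. The authors deposited raw read counts per Ensembl gene; the submitters' processing notes name cutadapt, HISAT2, HTSeq and the mm10 build, and the counting options and versions are not given in the sources used here. Counting without strand would not tell overlapping genes apart. No column was left unmapped to a sample.

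Symbols, exon lengths and coordinates came from GENCODE M21. Age was tested in each region on 8 libraries (4 against 4) with edgeR 4.0.16 in R 4.3.3, using TMM, a total of at least 10 counts, the quasi-likelihood F-test and Benjamini-Hochberg adjustment over all genes tested. Regions were compared at each age on 28 libraries, and the interaction of region and age on all 56. A member was region-high at an adjusted p under 0.05 and a level 4 or more times the mean elsewhere. Alternatives were DESeq2 1.42.0, other scalings and filters, a replicate block, all libraries in a single fit, an unadjusted p under 0.05 with 1.5-fold and leaving out each library. Scripts were tested on simulated data.

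Values in each library are given for members among the 3 largest called changes of a region and direction with a mean of at least 1 CPM, for the region-high member with the largest ratio, and for members called in both directions. The members and gene lists were chosen with earlier results of these data known. Libraries held 11125279 to 20561967 counts, and intervals cover counting error only.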

Additional observations from a re-analysis of the deposited data

Results flagged for a closer look

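Groups of 4 libraries were examined for each summed collagen level, for each member and region given library by library, and for both ages of each named effect. In 11 of these 96 groups the gap between an extreme library and its nearest neighbour was a larger part of the group's range than Dixon's 95% critical value, which chance passes in about 1 in 20 groups. At 3 months this ratio was 0.979 for the summed collagen level of the cauda and 0.938 for that of the initial segment. In the young cauda it was 0.977 for Col1a1 and 0.966 for Col3a1, both from replicate 3. In the young initial segment it was 0.864 for Col1a1, 0.866 for Col1a2 and 0.893 for Col16a1. In the young corpus it was 0.974 for Col3a1 and 0.853 for Col5a2, in the young caput 0.862 for Col27a1, and in the old corpus 0.926 for Col1a1.

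The age effect differed among the 7 regions, by edgeR's test of the interaction, in 18 members. Among fibrillar collagens the adjusted p was 0.0238 for Col1a1, 0.0254 for Col1a2, 0.0108 for Col5a1, 0.0361 for Col5a3, 0.000189 for Col11a1 and 0.00115 for Col27a1. Among beaded filament collagens it was 0.00182 for Col6a1, 0.015 for Col6a2, 0.0178 for Col6a3, 0.000289 for Col6a4 and 0.00158 for Col6a5. It was 0.0454 for Col4a2, 0.000581 for Col15a1, 0.029 for Col8a2 and 0.0238 for Col10a1, and among FACIT collagens 0.0258 for Col12a1, 0.00494 for Col16a1 and 0.0172 for Col22a1.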

How the results depend on the processing

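Of 543 alternative values for 34 effects of named members, 471 kept their direction and call, 72 lost the call and 0 reversed. Of 340 alternative values for 25 counts, 271 stayed within 1.5 times the reported count and 69 did not, and the cause was not tested. With library size only, lower members numbered 8 for the caput and 18 for the efferent ductules, and that scaling put the median of all genes at 0.19 and -0.38 there and at -0.17 for the corpus. With all 56 libraries in a single fit it was 0 in the testis, 12 in the corpus and 20 in the cauda. In the cauda it was 14 by DESeq2, 2 with library size only, 7 with no filter and 22 by the unadjusted p and 1.5-fold. Higher members numbered 0 for the testis by DESeq2, by filterByExpr and in the single fit, 1 for the efferent ductules with library size only and by the unadjusted p and 1.5-fold, 0 for the initial segment and caput in the single fit, and 2 for the initial segment by the unadjusted p and 1.5-fold. In the corpus it was 2 by DESeq2, by filterByExpr and with no filter, 0 with library size only and in the single fit, and 4 by the unadjusted p and 1.5-fold. The interaction count was 11 with library size only. Requiring 4 times each other region left 5 region-high members for the testis, 1 for the efferent ductules and 0 for the caput and vas deferens. Requiring 2 times the mean of the others gave 10, 4, 2, 2, 11 and 10 from the efferent ductules to the vas deferens.

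Leaving out each library gave 0 to 7 lower members for the cauda (0 without 3-month replicate 1 or 21-month replicate 3 or 4, 7 without 3-month replicate 3), 13 to 20 for the corpus and vas deferens, 17 to 23 for the caput, 15 to 20 for the initial segment, 6 to 10 for the efferent ductules (6 without any young library) and 5 to 7 for the testis. Higher members numbered 0 to 1 for the testis (1 only without 21-month replicate 4), 0 to 3 for the efferent ductules (0 without any young library or 21-month replicate 3, 1 without 21-month replicate 2 or 4), 1 to 2 in the initial segment (2 without 3-month replicate 4), 1 to 2 in the corpus (2 without 3-month replicate 1) and 0 to 2 in the vas deferens (0 without any young library or 21-month replicate 3, 2 without 21-month replicate 4). The interaction count was 9 to 13, with 9 without replicate 1 or 2 of every group. Shares of all genes with a library left out are not given.

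With the replicate number as a block the cauda had 9 lower members, the efferent ductules 0 higher and the corpus 2 higher. Over all genes the mean correlation of the deviations of same-numbered libraries was 0.0301 between regions at 3 months, 0.00251 at 21 months and 0.0209 between ages, and all replicates passed 0.1 in 1 of 21 pairs (the young corpus and cauda), 0 of 21 and 0 of 7, so the numbers were not taken to pair libraries. For the collagen genes young replicate 3 did stand high together in 6 of 7 regions, the testis to the cauda, with the highest level of 22 to 29 of the 40 to 43 members there. Added after the data were seen, leaving out 3-month replicate 3 of the cauda gave 5 members highest there in place of 12.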
